A study of Mus musculus with 2 samples.

Results

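The genes described here are 52 interferon-stimulated effector genes, of 55487 genes in the deposited table of counts. They are a list of named genes that cells switch on in response to interferon, and genes of the Ifit, Schlafen, guanylate-binding protein and Ifi200 families are not among them. They were listed by name and not by a cut-off on a measured value, but with earlier results of these data known. Their shares beside those of all genes are therefore a description and no test. All 52 were found by their Ensembl identifiers and GENCODE M21 symbols.

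By the labels, the RNA came from small peritoneal macrophages, a macrophage type of the abdominal cavity, which were sorted and pooled over mice. Markers of other cells were also present in both pools, as given below. Both groups were male SWISS mice, an outbred stock, 5 weeks old, that received 20 mg/kg lipopolysaccharide (LPS, a cell wall component, here from Escherichia coli) into the peritoneum. Both received 30 mL/kg saline under the skin after 6 h and were killed at 22 h. The LPS group was 1 pool of 102283 sorted cells from 7 mice. The LPS+LCC-12 group was 1 pool of 66967 cells from 8 mice that also received 0.3 mg/kg LCC-12, known as a compound that acts on mitochondrial copper, into the peritoneum at 6 h. The labels name no vehicle for the LPS group, and untreated mice were not analysed here.

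Interferons bind receptors on the cell surface, and kinases of the JAK family then activate STAT proteins. A complex that holds STAT2 and IRF9 binds the interferon-stimulated response element in promoters, and another promoter element, the gamma-activated site, is bound after interferon gamma. In macrophages LPS sets off this program through Toll-like receptor signalling and secreted interferon beta. The products act against viruses and intracellular microbes: they sense foreign RNA, degrade it, deplete nucleotides, block entry at membranes or attack vacuoles.

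The total was 50618409 deposited counts for LPS and 47721888 for LPS+LCC-12, called below the LPS pool and the pool after LCC-12. Ratios were taken after scaling the libraries by the trimmed mean of M-values (TMM), as LPS+LCC-12 over LPS on the log2 scale. The bracketed range after a ratio is its exact 95% counting interval, which takes each count as an independent molecule. With 1 library per group nothing was tested against variation between mice, and each difference is between these 2 pools. In a pool of cells, fewer cells of a type and less RNA per cell cannot be told apart.

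The effector genes were lower in the LPS+LCC-12 library almost throughout the list. Of the 52 genes, 51 had 50 or more counts in the library where they were higher, and only these are read for ratios. Of the 51, 25 were at least 2-fold lower and none was at least 2-fold higher. Among all 13482 genes with 50 or more counts, 6.65% were at least 2-fold lower and 4.01% at least 2-fold higher. The median log2 ratio was -0.98 over the 51 genes, beside 0.02 over all 13482. A ratio below 0 was seen for 50 of the 51, against 47.6% of all genes, and 49 had an interval wholly below 0, against 32.9% of all genes. At least 4-fold lower were 9 of the 51, against 1.36% of all genes.

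The 52 genes together held 497337 counts with LPS, 0.983% of the library (exact 95% interval 0.980 to 0.985). They held 273300 counts with LPS+LCC-12, 0.573% of that library (0.571 to 0.575). Scaled, the sum was 9959 CPM (counts scaled to a common library size) in the LPS pool and 5650 after LCC-12, 1.76-fold lower. Samhd1 alone gave 81235 and 63263 of these counts, and its own ratio was among the smaller ones. The median gene was lower by more than the sum, 1.98-fold.

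**Figure D1:**
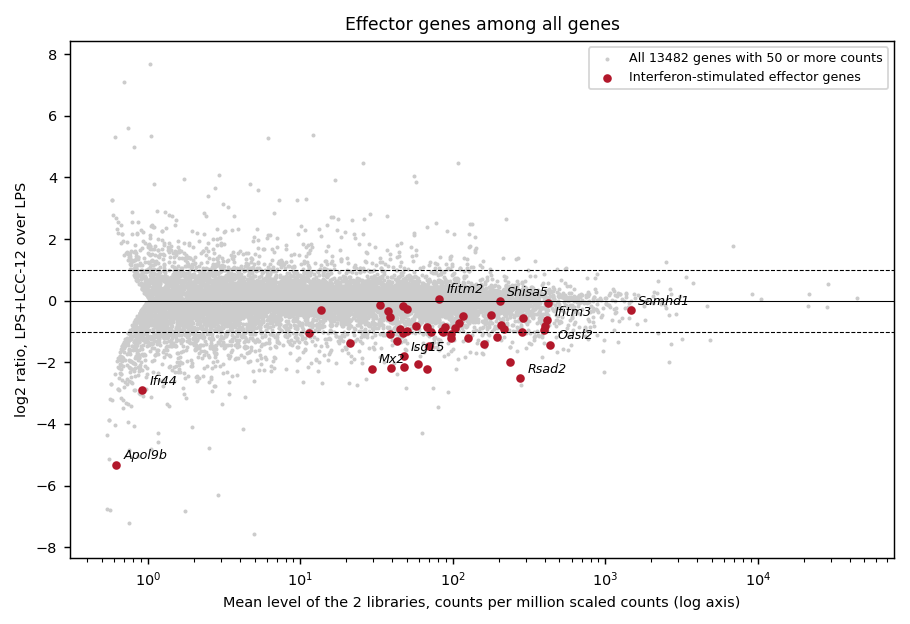
Each grey point is 1 of the 13482 genes with 50 or more counts, and each red point is 1 of the 51 effector genes read for ratios. The x axis is the mean level of the 2 libraries in CPM on a log axis, and the y axis is the log2 ratio of LPS+LCC-12 over LPS. Dashed lines mark 2-fold, and 50 of the 51 red points lie below 0.

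The ratios formed a graded order rather than a uniform shift. Apol9b and Ifi44 stood lowest but had few counts. Among the well-counted genes Rsad2 was lowest, at -2.51, and its interval did not overlap that of the next gene, Usp18. Usp18, Mx2, Isg20, Mx1, Cmpk2 and Oas3 followed between -2.23 and -2.01, each with an interval that overlapped its neighbour's. Isg15 stood alone at -1.80, apart from Oas3 above it and Herc6 below it. From Herc6 at -1.46 to Irgm1 at -0.72 the intervals of neighbours overlapped at every step. Siglec1 at -0.62 opened a last stretch that ended with Ifitm3, Shisa5 and Ifitm2 around 0.

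**Figure D2:**
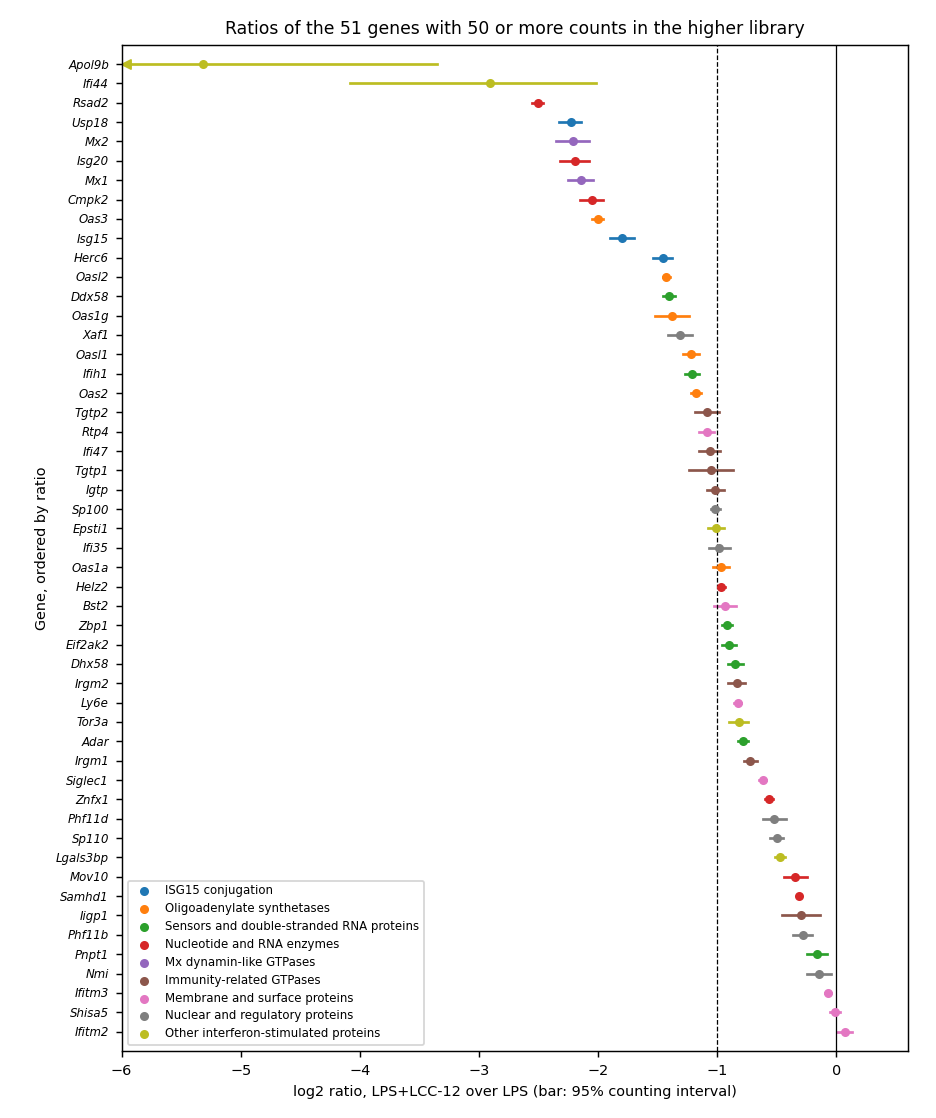
Points are log2 ratios of LPS+LCC-12 over LPS for 51 genes in order, bars are 95% counting intervals, and colours are roles. The dashed line marks 2-fold lower. The interval of Apol9b runs on past the left edge to -11.21, as the arrow shows, and Ifitm2 at 0.07 is the only point above 0.

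The system that attaches the ubiquitin-like protein ISG15 to other proteins was lower in all 3 of its members. Each was at least 2-fold lower, against 6.65% of all genes with 50 or more counts. Isg15 encodes the modifier itself (chromosome 4, 156199424 to 156200818, minus strand, GRCm38). It had 3695 counts in the LPS pool and 1029 after LCC-12, a ratio of -1.80 (-1.90 to -1.70). Usp18 encodes the protease that removes ISG15 and also restrains the type I interferon receptor (chromosome 6, 121245906 to 121270917). It had 5576 and 1149 counts, 4.70-fold lower (log2 ratio -2.23, -2.33 to -2.14). Herc6, the ISG15 ligase of mice, had 5097 and 1796 counts, a ratio of -1.46. In CPM per kilobase of exon, the level used here to compare genes, Isg15 was the most abundant of the 3, with a level of 97.9 and then 28.1, and Herc6 the least, with 11.0 and then 4.00.

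Active oligoadenylate synthetases make a second messenger from ATP when they bind double-stranded RNA. Of the 6 genes listed from this family, 5 were at least 2-fold lower, against 6.65% of all genes with 50 or more counts. Oas3 had the lowest ratio, -2.01 (-2.05 to -1.96), with 18906 counts in the LPS pool and 4560 after LCC-12. Oasl2 had the highest level per kilobase, 99.6 and 37.0, with 31696 and 11401 counts and a ratio of -1.43. Oasl1, known as a repressor of Irf7 translation, was 2.33-fold lower, and Oas2 2.27-fold. These genes lie in 2 groups on chromosome 5, Oasl2 and Oasl1 from 114896936 to 114937915 and Oas2, Oas3, Oas1g and Oas1a from 120730333 to 120907521.

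Neighbouring genes of the second group did not share one ratio. Oas2 and Oas3 lie next to each other on the same strand, and their intervals, -1.22 to -1.14 and -2.05 to -1.96, did not overlap. Oas1g had 1519 and 566 counts (log2 ratio -1.38, -1.52 to -1.24). Oas1a had 5648 and 2797 counts and was just within 2-fold (log2 ratio -0.97, -1.03 to -0.90). Of the 100-base stretches in Oas1a transcripts, 40.9% also occur in Oas1g, so reads of this pair may be split or dropped by the counting.

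The sensors and proteins of double-stranded RNA were lower by less. At least 2-fold lower were 2 of these 7 genes, against 6.65% of all genes with 50 or more counts. The group median was -0.90. Ddx58, which encodes the RNA sensor RIG-I (chromosome 4, 40203773 to 40239828), had 11513 counts in the LPS pool and 4215 after LCC-12, a ratio of -1.40. Ifih1, which encodes the sensor MDA5, had 8752 and 3660 counts, a ratio of -1.21. Dhx58, which encodes LGP2, the third helicase of this group, had 5718 and 3076 counts and stayed inside the limit at -0.85. The intervals of the 3 helicase genes did not overlap one another.

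Zbp1, a sensor of Z-form nucleic acids that can start necroptosis, had 14191 and 7282 counts and a ratio of -0.92. Eif2ak2, the kinase PKR that stops translation, had a ratio of -0.90, and Adar, which edits adenosine to inosine in double-stranded RNA, -0.79. All 3 were lower but within 2-fold. Pnpt1, an RNA exonuclease of mitochondria, had 2481 and 2143 counts, a ratio of -0.17 (-0.25 to -0.08). It was the member of this group with the smallest difference.

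Among enzymes that act on nucleotides and RNA, 3 of 7 were at least 4-fold lower and the other 4 were within 2-fold. Of all genes with 50 or more counts, 1.36% were at least 4-fold lower. Rsad2 encodes viperin, which turns CTP into a chain terminator of viral polymerases (chromosome 12, 26442746 to 26456452, minus strand). It had 23422 counts in the LPS pool and 3989 after LCC-12, 5.69-fold lower (log2 ratio -2.51, -2.56 to -2.46). Cmpk2, a mitochondrial nucleotide kinase, is its neighbour on the other strand (26469204 to 26479837). It had 4721 and 1101 counts, a ratio of -2.05 (-2.15 to -1.96). Isg20, an RNA exonuclease, had 3220 and 680 counts, a ratio of -2.20.

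In the same group Helz2, a helicase, had 26228 and 13011 counts and a ratio of -0.97. Znfx1, a helicase that binds viral RNA, had -0.57. Mov10, a helicase that restrains retroelements, had -0.34, and Samhd1, which hydrolyses deoxynucleotides, -0.31 (-0.33 to -0.30). Samhd1 had the second highest level per kilobase of all members with LPS, 178, and 143 with LPS+LCC-12. The group held both the lowest ratio among the well-counted members and some of the smallest differences.

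Both Mx genes, which encode dynamin-like GTPases that trap viral nucleocapsids, were more than 4-fold lower. The share at least 4-fold lower was 1.36% over all genes with 50 or more counts. Mx1 had 3914 counts in the LPS pool and 856 after LCC-12, a ratio of -2.15 (-2.26 to -2.04). Mx2 had 2413 and 504 counts, a ratio of -2.21 (-2.35 to -2.07). The intervals of the pair overlapped. They lie on chromosome 16 between 97447035 and 97560900, and 0.929% of the 100-base stretches of Mx1 transcripts occur in Mx2.

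**Figure D3:**
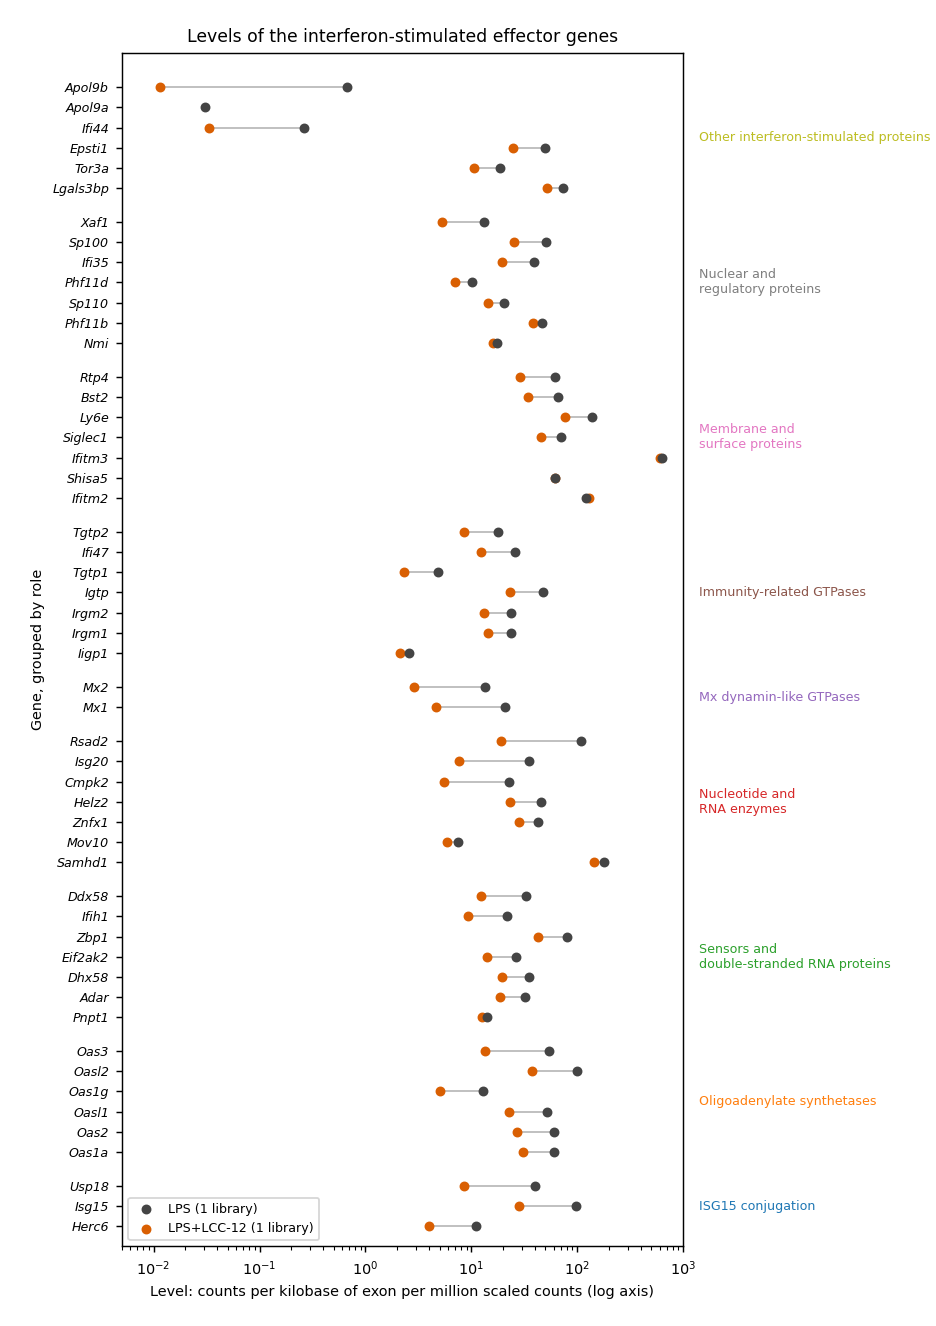
Each row is 1 gene, and the x axis is its level in CPM per kilobase of exon on a log axis. Dark points are the LPS library and orange points the LPS+LCC-12 library. Apol9a has no orange point because it had 0 counts there. Ifitm3 lies farthest right, at 632 and 601, and the points of Shisa5 coincide.

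Immunity-related GTPases load onto vacuoles of intracellular microbes and are known above all as targets of interferon gamma. Apart from Iigp1 their ratios were close together. Of the 7 genes, 4 were at least 2-fold lower, against 6.65% of all genes with 50 or more counts. The group median was -1.02. The effector GTPase genes Tgtp2, Tgtp1 and Ifi47 had 2633, 769 and 3160 counts with LPS. With LPS+LCC-12 they had 1199, 359 and 1463 counts, with ratios of -1.09, -1.05 and -1.06. Igtp, a regulatory member, had 4784 and 2288 counts, a ratio of -1.02 (-1.09 to -0.95). All 4 had intervals that reached inside the 2-fold limit, so counting error alone reaches across the limit.

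The other regulatory members were within 2-fold. Irgm2 had 4330 and 2346 counts, a ratio of -0.84, and Irgm1 had 6870 and 4030 counts, a ratio of -0.72. Iigp1, an effector member on chromosome 18, had 757 and 596 counts, a ratio of -0.30 (-0.46 to -0.14), above the intervals of the 6 members on chromosome 11. Of the 100-base stretches of Tgtp2, 76.8% occur in Tgtp1, so most reads of that pair are not cleanly separable. Igtp overlaps Irgm2 on the same strand and shares 5.16% of its stretches with it. In other roles, stretches shared with other genes were found for Sp110 (17.5%), Phf11b (13.8%), Herc6 (10.3%) and Rtp4 (9.28%).

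Membrane and surface proteins showed the smallest differences together with the nuclear group. Of 7, only Rtp4 was at least 2-fold lower, against 6.65% of all genes with 50 or more counts. A count of 1 among 7 says little beside that share. Rtp4 had 6565 and 2991 counts (log2 ratio -1.09, -1.15 to -1.03). Rtp4 encodes a chaperone of membrane receptors that is known to restrain some viruses. Bst2, or tetherin, which holds budding virions at the cell surface, had 2947 and 1494 counts, a ratio of -0.93. Ly6e, a lipid-anchored protein that limits virus entry, had -0.83, and Siglec1, a sialic acid receptor of macrophages, -0.62 with 24927 and 15727 counts.

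Ifitm3 and Ifitm2, which hinder fusion of viruses with endosome membranes, and Shisa5, a protein of the endoplasmic reticulum, were near 0. Ifitm3 had the highest level per kilobase of all members, 632 with LPS and 601 with LPS+LCC-12, from 21397 and 19713 counts (log2 ratio -0.07, -0.10 to -0.04). Ifitm2 had 3978 and 4044 counts, a ratio of 0.07 (0.01 to 0.13). Shisa5 had 10167 and 9781 counts, a ratio of -0.01 with an interval that spanned 0 (-0.05 to 0.03). Of the 100-base stretches of Ifitm2, 34.9% occur in transcripts of other genes. Over the scalings tried, Shisa5 ran from -0.04 to 0.05 and so changed sign, whereas Ifitm2 stayed above 0, from 0.04 to 0.13, and Ifitm3 below it, from -0.11 to -0.01.

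Nuclear and regulatory proteins had a median of -0.52. Of the 7, 2 were at least 2-fold lower, against 6.65% of all genes with 50 or more counts. Xaf1, an antagonist of the apoptosis inhibitor XIAP, had 3049 and 1189 counts, a ratio of -1.31. Sp100, a scaffold of nuclear bodies, had 19121 and 9156 counts, a ratio of -1.02 (-1.05 to -0.98), whereas Sp110, close to it on chromosome 1, had 6816 and 4662 counts, a ratio of -0.50. Ifi35 and Nmi encode proteins that bind each other. Ifi35 was just within 2-fold, with 3339 and 1637 counts (log2 ratio -0.98), and was the median gene of the whole list. Nmi had 1755 and 1538 counts, a ratio of -0.14 (-0.24 to -0.04). Phf11d and Phf11b, members of a zinc finger cluster on chromosome 14, had -0.52 and -0.28.

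The remaining genes ranged widely in level. Ifi44 had 81 counts in the LPS pool and 10 after LCC-12, a ratio of -2.91 (-4.09 to -2.02). Apol9b, an apolipoprotein L gene, had 61 counts and 1 count, a ratio of -5.32 with an interval from -11.21 to -3.35. Its close copy Apol9a had 9 counts and 0 counts and was too low to be read. Of the 100-base stretches of Apol9b, 36.7% occur in other genes. These were the only members with a level under 1 per kilobase in both libraries. Epsti1, known from macrophage polarization, had 5751 and 2765 counts, a ratio of -1.01 (-1.08 to -0.94). Tor3a, a torsin ATPase, had -0.82, and Lgals3bp, a secreted galectin-binding protein, -0.47 with 10306 and 7182 counts.

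The calls close to the limit depended on scaling. Scaled by total counts, Epsti1, Igtp and Sp100 came within 2-fold and 22 genes remained at least 2-fold lower. With the 100 most abundant and the mitochondrial genes left out of the totals, Tgtp1 did so as well. Ifi35 passed the limit under the median of ratios, and Ifi35 and Oas1a under the upper quartile. With 200 or more counts required, 23 genes were at least 2-fold lower, against 4.18% of all genes at that depth. For 19 of the 25 genes the whole counting interval lay beyond 2-fold, against 3.86% of all genes.

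Genes that work with the effectors ranged from no difference to ratios like those of the effectors. Over all genes with 50 or more counts, 6.65% were at least 2-fold lower and 4.01% at least 2-fold higher. Of 6 partners of the ISG15 and oligoadenylate systems, none was past 2-fold. Trim25, a ubiquitin ligase of the RIG-I pathway, had 14558 and 10163 counts and a ratio of -0.47. Uba7, the ISG15-activating enzyme, had 7232 and 3579 counts and a ratio of -0.97. Ube2l6, the conjugating enzyme, had -0.66, and Abce1, an ATPase of ribosome recycling, 0.23. Of 8 genes of RNA and DNA sensing (adaptors, kinases, a sensor and transcription factors), 1 was at least 2-fold lower. This was Irf7, a transcription factor that amplifies interferon production, with 23746 and 10324 counts (log2 ratio -1.16, -1.19 to -1.12). Mavs, the mitochondrial adaptor of RIG-I and MDA5, had 806 and 907 counts, a ratio of 0.22 (0.08 to 0.36), and Tbk1 had -0.14.

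Receptors and signalling proteins of interferon had a median of -0.41 over 14 genes. At least 2-fold lower was 1 of the 14, against 6.65% of all genes with 50 or more counts. That gene was Socs1, an inhibitor of JAK kinases, with 1770 and 463 counts (log2 ratio -1.89, -2.04 to -1.74). Of the response element complex, Stat2 had -0.99 and Irf9 -0.65. The type I receptor gene Ifnar1 had 12587 and 12451 counts, a ratio of 0.03 (-0.01 to 0.07), and its partner Ifnar2 -0.46. Transcripts of the listed interferon genes were barely present at 22 h after LPS, the only time sampled. Of the interferon alpha genes only Ifna1, Ifna2, Ifna4 and Ifna5 were listed. Of 10 ligand genes, 8 had 0 counts in both libraries, Ifnb1 had 5 counts in the LPS pool and 0 after LCC-12, and Ifnl2 1 count and 0. A count of 0 allows up to 3 counts, or 0.0601 CPM with LPS and 0.0620 with LPS+LCC-12.

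Most genes of the other interferon-stimulated families were also lower in the pool after LCC-12. The counts below stand beside 6.65% of all genes with 50 or more counts that were at least 2-fold lower. The Ifit genes, which encode binders of foreign RNA, were all at least 2-fold lower: Ifit1, Ifit1bl1, Ifit1bl2, Ifit2, Ifit3 and Ifit3b ran from -2.23 for Ifit1 to -3.44 for Ifit3, with a median of -2.89. Of 7 Schlafen genes, 5 were (Slfn1, Slfn4, Slfn5, Slfn8 and Slfn9), with a family median of -1.44. Of 11 guanylate-binding protein genes, 4 were (Gbp4, Gbp5, Gbp9 and Gbp10), with a family median of -0.87, and Gbp2b was at 0.14 with an interval above 0. Of 10 Ifi200 genes, 3 were (Ifi208, Ifi211 and Ifi213), with a family median of -0.84, and Aim2 (0.23) and Ifi205 (0.16) had intervals above 0. The median of the 51 effector genes, -0.98, lay between those of the Schlafen and guanylate-binding families. No test of these differences was possible with 1 library per group.

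**Figure D4:**
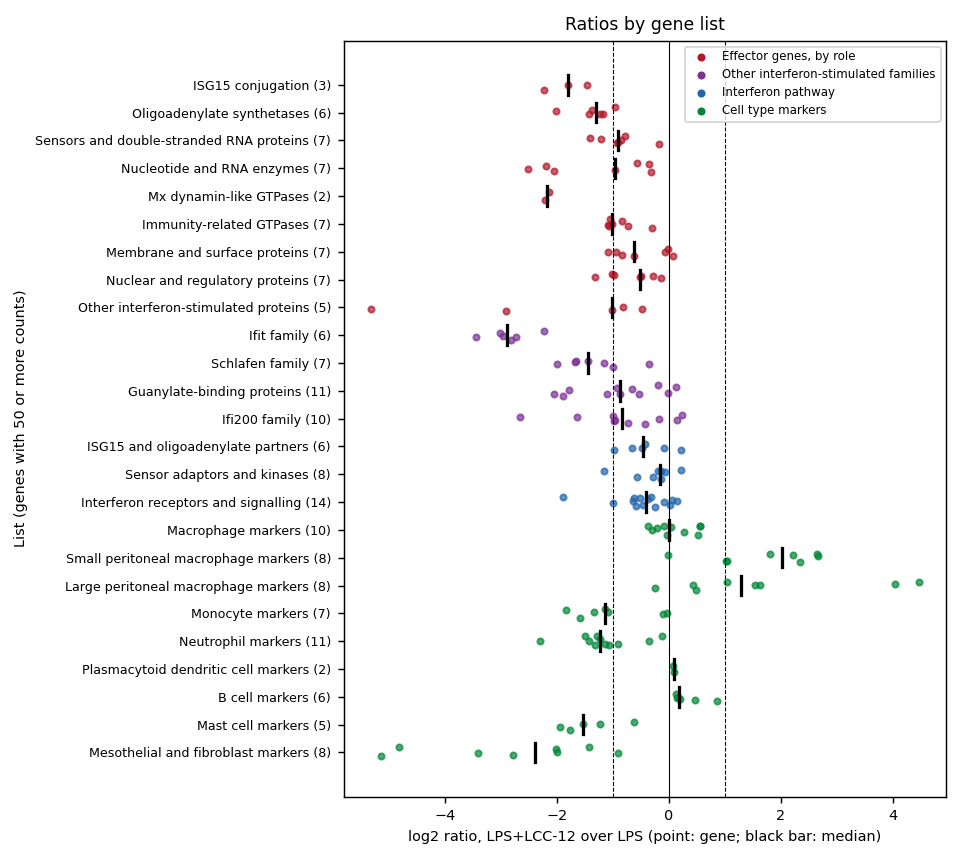
Each point is 1 gene with 50 or more counts, placed by its log2 ratio of LPS+LCC-12 over LPS, and black bars are medians. Red rows are the effector genes by role, purple rows other interferon-stimulated families, blue rows interferon pathway genes and green rows cell type markers. All 9 red medians are below 0, from -2.18 for the Mx genes to -0.52 for the nuclear group.

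Markers of the sorted cell type and of other cells were compared between these pools too. Over all genes with 50 or more counts, 6.65% were at least 2-fold lower and 4.01% at least 2-fold higher. All 10 macrophage markers were present and within 2-fold, with Adgre1 at -0.02, Csf1r at 0.56 and summed levels of 8651 CPM in the LPS pool and 9996 after LCC-12. Of 8 small peritoneal macrophage markers 7 were at least 2-fold higher (Ccr2 -0.02, Cx3cr1 2.34, sums 838 and 1435), and of 8 large peritoneal macrophage markers 5 (Gata6 0.49, Timd4 4.03, sums 462 and 922). Of 11 readable neutrophil markers 8 were at least 2-fold lower (S100a8 -1.14, S100a9 -1.42, sums 9298 and 3514), and Elane had 0 and 3 counts. Of 7 monocyte markers 5 were at least 2-fold lower (Ly6c2 -1.09, Plac8 -1.83, sums 4924 and 3063). The other 2, F13a1 (-0.03) and Vcan (-0.10), barely differed. F13a1 had 1163 CPM in the LPS pool and 1142 after LCC-12, and Vcan 908 and 849.

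Lists of other cells were present at low levels. B cell markers were within 2-fold (Cd79a 0.20, sums 71.2 and 88.4). Plasmacytoid dendritic cell markers summed to 79.9 and 85.4, but Tcf4 gave 65.6 and 69.8 of this and Bcl11a 13.3 and 14.1. All other markers of that list were under 50 counts, among them Siglech at 0 and 12 counts and Ccr9 at 32 and 25. Mast cell markers (Cpa3 -1.22, Kit -1.76) summed to 15.2 and 5.40, and mesothelial and fibroblast markers to 19.7 and 4.96, with Msln at 12 counts and 1 count, Upk3b at -1.99 and Wt1 at 8 and 0 counts. T and NK cell markers, Cd3d and Cd3e first among them, summed to 3.48 and 2.15. The part of these markers in the ratios of the effector genes was not tested.

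The promoters of the effector genes were searched for what they share, in RefSeq windows on GRCm38.p6 that run from 250 bases before to 50 after each start. Of the 52 genes 41 had an entry. Rtp4, Mx1, Mx2, Zbp1, Oas2, Ly6e, Siglec1, Tor3a, Iigp1, Usp18 and Dhx58 had none. The letters GAAA, any 2 bases and GAAA again, on either strand, a core of the interferon-stimulated response element, were found for 20 of 41 genes (48.8%), against 1079 of all 27025 genes with an entry (3.99%). The letters TTCNNNGAA, a core of the gamma-activated site that reads the same on both strands, were found for 13 of 41 (31.7%) against 9.55%. A match is a description of letters and not evidence of binding. The lack of a match in this window does not show that a gene has no such element.

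Windows of Rsad2, Oas3, Isg15 and Ifitm2 are shown because these genes hold the response element letters before the start and span nearly the whole order of ratios. Capitals mark the matched letters, which in Rsad2 lie on the opposite strand. The windows are chr12:26456543-26456592 (minus strand), chr5:120777705-120777754 (minus), chr4:156200855-156200916 (minus) and chr7:140955978-140956027 (minus), each written 5′ to 3′ along the gene's strand.
Rsad2: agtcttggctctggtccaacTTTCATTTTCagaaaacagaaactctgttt
Oas3: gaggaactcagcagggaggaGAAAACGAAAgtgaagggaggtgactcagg
Isg15: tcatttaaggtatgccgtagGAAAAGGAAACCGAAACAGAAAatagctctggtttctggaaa
Ifitm2: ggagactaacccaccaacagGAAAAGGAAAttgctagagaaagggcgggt
Isg15 held 3 overlapping matches and the other 3 genes 1 each. Rsad2, Oas3, Isg15 and Ifitm2 had ratios of -2.51, -2.01, -1.80 and 0.07 in the same order.

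Among readable effector genes with a promoter entry, those with and without the response element letters had similar ratios. The 11 genes without an entry are not in this split. Their ratios ran from -2.23 for Usp18 to -0.30 for Iigp1, with Mx2 at -2.21 and Mx1 at -2.15. Of the 19 readable genes with a match, 10 were at least 2-fold lower with a median of -1.02. Of the 21 without, 10 were at least 2-fold lower with a median of -0.98. For the gamma-activated site letters, 4 of 13 readable genes with a match were at least 2-fold lower (median -0.93), and 16 of 27 without (median -1.06). Split by the response element letters, genes outside the list differed little in the median, which was -0.02 for 360 genes with a match and 0.04 for 8957 without. Of those, 10.3% with a match and 4.76% without were at least 2-fold lower. No test was made of these shares. The other interferon-stimulated families were not left out of the genes outside the list. Ifit3, at -3.44, was the lowest of them with a match.

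**Figure D5:**
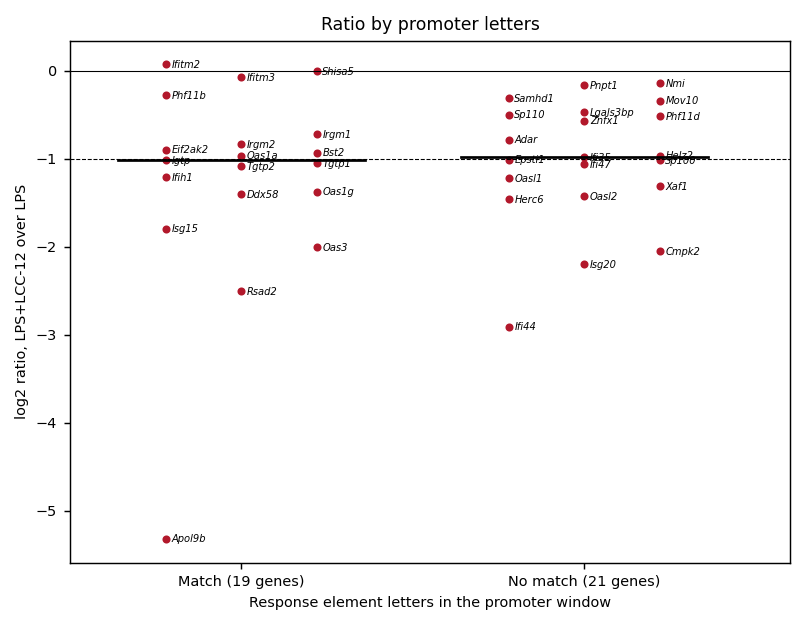
Points are the 40 effector genes that have a promoter entry and 50 or more counts, split by the response element letters in the window, with the log2 ratio of LPS+LCC-12 over LPS on the y axis. Points are set side by side only for legibility, and black bars are medians, -1.02 with a match and -0.98 without.

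Some of the immunity-related GTPase genes shared a longer arrangement of letters. The gamma-activated site letters were followed after 2 bases by the response element letters in Tgtp1, Tgtp2, Igtp and Irgm2. Of the 27025 genes with an entry, 5 held this arrangement, these 4 and Gm12185, which overlaps Tgtp1 on the same strand. All 5 had 50 or more counts, and their ratios were -1.05, -1.09, -1.02, -0.84 and -1.47. The windows of the listed genes are shown to compare them, at chr11:48992294-48992354 (minus strand), chr11:49064253-49064313 (minus), chr11:58199491-58199551 (plus) and chr11:58214882-58214942 (plus). Capitals mark both sets of matched letters.
Tgtp1: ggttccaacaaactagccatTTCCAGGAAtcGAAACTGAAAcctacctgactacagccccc
Tgtp2: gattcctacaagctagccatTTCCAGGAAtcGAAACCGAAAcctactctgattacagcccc
Igtp: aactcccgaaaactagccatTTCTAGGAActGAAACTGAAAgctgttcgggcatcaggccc
Irgm2: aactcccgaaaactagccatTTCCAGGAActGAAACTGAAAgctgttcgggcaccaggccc
Tgtp1 and Tgtp2 lie close together on chromosome 11, as do Igtp and Irgm2 in another place on it. Members of a family that share sequence are not independent of one another.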

How the data were processed

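RNA from 2 pools of sorted cells was sequenced, and the deposited file holds raw counts per gene, not normalized, with 1 column per library tied to its group by the library code in the labels. The submitters' processing notes name STAR, without a version, and mm10. Which tool counted, with what strand setting and gene models, is not given in the sources used here. The labels describe a stranded kit for total RNA with depletion of ribosomal RNA, while their molecule entry says polyA RNA. Of 55487 gene IDs, 55394 matched GENCODE M21 (GRCm38).

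Scaling factors came from the TMM method of edgeR (version 4.0.16, R version 4.3.3), and ratios had 0.5 added counts. Genes under 50 counts in the higher library were not read, and a 2-fold ratio was the limit for calling a gene higher or lower. Intervals are exact (Clopper-Pearson) and cover counting error only. PCR copies are not independent molecules, so the intervals may be too narrow even for that error. Levels used merged GENCODE exons. Transcripts were compared in windows of 100 bases. The calculation of ratios and intervals was run on simulated counts that held counting error only. That run checks the calculation and cannot show how well the intervals cover real libraries. Alternatives were other scalings (with DESeq2 1.42.0 for the median of ratios), count minimums, added counts and size limits. The rule named every member past the limit and the extremes of each role, genes of other lists past the limit (or the 2 with the most counts), the first 2 markers of a list and markers at 0. Other genes were named for their role, and a few genes the rule or role would name are not reported here. The members and lists were chosen with earlier results of these data known. Of the listed names, Mb21d1 was read as Cgas and Mnda as Ifi211, which was also listed.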

Additional observations from a re-analysis of the deposited data

How the results depend on the processing

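No paired analysis was possible because each group is 1 library, and leaving out a replicate was not possible either. The count of 25 genes at least 2-fold lower ran from 21 to 27 over the scalings, was 26, 25 and 23 with count minimums of 1, 10 and 200, and became 38 with a limit of 1.5-fold and 10 with 3-fold. Of all genes with 200 or more counts, 4.18% were at least 2-fold lower. The share of all genes was not computed for the other scalings, the minimums of 1 and 10, or the 1.5-fold and 3-fold limits. These counts therefore show only how the calls move with the setting. No gene was higher past the limit in any setting run. The median of -0.98 ran from -1.02 to -0.92 over the scalings, and the mean in its place was -1.14, since a few genes lie far below the rest. Without the 12 genes that share 5% or more of their 100-base windows with another gene, an alternative chosen after seeing the data, 18 of 40 were at least 2-fold lower with a median of -0.95. Counts limit Apol9a, Apol9b and Ifi44 most.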

Other observations

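Across the 51 readable genes the log2 ratio and the log2 of the mean level per kilobase had a Pearson's r of 0.55 and a Spearman's rho of 0.27. This is a description across genes that share both libraries, and Apol9b and Ifi44 are low on both axes.

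Genes that overlap the effector genes were looked at after their values were seen. Gm13822, annotated as antisense to Oasl1, had 234 counts in the LPS pool and 29 after LCC-12. Zfas1, opposite to Znfx1, had 558 and 340 counts. Olfr56, which overlaps Ifi47 on the same strand, had 232 and 80 counts. Gm12185, which overlaps Tgtp1 on the same strand, had 402 and 140 counts. For the opposite-strand pairs, reads from the stretch where both genes lie can be assigned only by strand, and the strand setting of the counting is not given in the sources used here. Of the 100-base stretches of Ifi47, 0.561% occur in Olfr56.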
